A study of Mus musculus with 20 samples.

Results

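Pou5f1, Nanog, Sox2, Esrrb, Tfcp2l1, Sall4, Tbx3, Zfp42, Prdm14 and Nr5a2 are transcription factors or chromatin-binding proteins known for their roles in pluripotent cells and in the inner cell mass of the blastocyst. These 10 genes were chosen by symbol from the 34937 genes counted in each embryo, for what they are known to do. Earlier results of these data were known when they were chosen. Of the 10, 9 passed the filter on low counts that left 11754 genes to be tested, and Sox2 did not. The inner cell mass is the source of the fetus and of pluripotent stem cells, and the surrounding trophectoderm gives rise to the placenta. POU5F1, SOX2 and NANOG bind many regulatory regions together in pluripotent cells, and ESRRB, TFCP2L1, TBX3, NR5A2 and PRDM14 help to hold those cells in their naive state. At the 8-cell stage the blastomeres are only beginning to differ, and several of these genes are being switched on while maternal RNA is still present.

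The data are counts from whole single mouse embryos of the 8-cell stage at E2.5, in 9 Ehmt2Cntr and 10 Ehmt2Mat embryos. Ehmt2 encodes G9a, a methyltransferase that dimethylates lysine 9 of histone H3. Ehmt2Mat embryos came from Ehmt2F/- mothers and Ehmt2Cntr embryos from Ehmt2F/+ mothers. The mothers of both groups carried Zp3-Cre, which is driven by a promoter of the growing oocyte and recombines the floxed allele there, and fathers were Ehmt2+/-. The background was mixed, matings were natural, and embryos of normal morphology were lysed after removal of the zona pellucida. The zygotic Ehmt2 genotype was +/+ in 6 controls and +/- in 3 (embryos 1, 3 and 10). It was +/- in 5 maternally depleted embryos (Ehmt2M/+) and -/- in the other 5 (Ehmt2M/Z). Control embryo 4 was not analysed here. The labels name no mother or litter, so the p-values measure the spread between these embryos, and mother or litter cannot be told apart from maternal genotype. In RNA of whole embryos, fewer cells that express a gene and less RNA per cell cannot be told apart either.

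Total counts were 8231650 to 30602400 per embryo, and CPM below are counts scaled to library size by TMM (trimmed mean of M values). A count of 3 in an embryo was worth 0.0980 to 0.364 CPM, and without molecular identifiers this floor covers counting error only. Ehmt2 itself had 66.6 to 253 CPM in controls (median 133) and 58.7 to 159 in maternally depleted embryos (median 94.9). The groups overlapped, and the log2 fold change was -0.47 (SE 0.237, adjusted p = 0.233 in edgeR). Ehmt2 was 77.3 to 159 CPM in Ehmt2M/+ embryos, which by genotype carry a zygotic copy, and 58.7 to 115 CPM in Ehmt2M/Z embryos. The counts cover the whole gene, so reads from exons that recombination leaves in place would still be counted. The part of either in these levels was not tested, and the loss is known from the genotype. Ehmt1, which encodes the partner GLP, had a log2 fold change of -0.0017 (SE 0.261, adjusted p = 0.998). RNA of oviduct epithelium varied with the groups: the summed level of 9 oviduct genes was 0.136 to 30.0 CPM in 8 controls, 433 in control 10 and 18.5 to 3086 in maternally depleted embryos. All 9 had a higher mean in maternally depleted embryos. Ovgp1, which encodes oviductin of the oviduct lining, averaged 46.3 CPM in controls and 495 CPM in maternally depleted embryos (adjusted p = 0.0926 in edgeR). It made up most of the sum in maternally depleted embryos and in controls 8, 9 and 10, and not in the other controls. Of 18 cumulus and granulosa genes, 9 had a higher mean in maternally depleted embryos, the sum was 26.2 to 119 CPM in controls and 64.1 to 226 in maternally depleted embryos, and Amh, Fshr, Foxl2, Has2 and Ptx3 were at 0 in every embryo. The number of genes with at least 1 count was 12068 to 16142 in controls (median 12848), with the highest value in control 10, and 12754 to 16412 in maternally depleted embryos (median 14488). The exact permutation test gave an unadjusted p of 0.0364 and, adjusted over the quality measures compared, 0.0727. Their part in the results below was not tested, and counts are given without the embryos with over 100 CPM of oviduct genes (control 10 and maternally depleted embryos 1 to 6).

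Promoter sequences of the RefSeq annotation (GRCm38.p6, the build of the counts) were matched by symbol for 7 of the 10 genes, and not for Sall4, Tbx3 and Prdm14. Each runs from 250 bases before to 50 bases after the start of transcription, 5′ to 3′ on the strand of the gene. The promoters of Tfcp2l1, Zfp42 and Sox2 are shown because Tfcp2l1 was called lower in maternally depleted embryos, Zfp42 was close to the threshold and Sox2 was scarcely counted in them, and that of Pou5f1 because its levels in the groups overlapped widely. Capitals mark matches, on either strand, to 8 motifs: the octamer bound by POU factors (ATGCAAAT), a SOX motif (ACAATGG), an ESRRB and NR5A2 motif (TCAAGGTCA), the TATA box (TATAAA), the CCAAT box (CCAAT), the GC box (GGGCGG), a KLF motif (GGGTGTGG) and the E-box (CACGTG).
Tfcp2l1, chr1:118627695-118627994, plus strand: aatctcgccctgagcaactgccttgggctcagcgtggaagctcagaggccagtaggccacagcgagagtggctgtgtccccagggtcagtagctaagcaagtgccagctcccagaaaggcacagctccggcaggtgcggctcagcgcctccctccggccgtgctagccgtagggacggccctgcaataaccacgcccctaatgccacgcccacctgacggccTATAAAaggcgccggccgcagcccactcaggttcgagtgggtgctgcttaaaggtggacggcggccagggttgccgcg
Zfp42, chr8:43306960-43307259, minus strand: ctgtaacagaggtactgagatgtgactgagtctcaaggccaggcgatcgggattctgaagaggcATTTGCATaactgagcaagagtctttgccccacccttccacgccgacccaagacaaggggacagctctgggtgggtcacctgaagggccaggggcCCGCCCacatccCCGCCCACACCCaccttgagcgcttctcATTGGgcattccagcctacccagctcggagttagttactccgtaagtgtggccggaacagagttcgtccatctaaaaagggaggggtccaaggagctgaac
Sox2, chr3:34649745-34650044, plus strand: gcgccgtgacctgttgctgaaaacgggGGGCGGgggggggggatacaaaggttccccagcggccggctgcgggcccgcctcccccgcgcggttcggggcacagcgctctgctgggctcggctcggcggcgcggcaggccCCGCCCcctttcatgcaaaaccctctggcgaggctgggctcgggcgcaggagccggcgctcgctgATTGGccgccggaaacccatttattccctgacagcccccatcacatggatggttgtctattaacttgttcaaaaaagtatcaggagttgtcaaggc
Pou5f1, chr17:35505782-35506081, plus strand: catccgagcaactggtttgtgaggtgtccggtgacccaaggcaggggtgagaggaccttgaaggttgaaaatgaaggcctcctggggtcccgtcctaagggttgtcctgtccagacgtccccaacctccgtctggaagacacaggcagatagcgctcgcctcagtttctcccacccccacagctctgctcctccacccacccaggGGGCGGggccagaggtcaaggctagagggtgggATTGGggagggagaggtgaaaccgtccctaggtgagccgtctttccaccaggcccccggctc
The Zfp42 window holds an octamer, which 1.74% of the 32851 RefSeq promoters of this length hold. It also holds a CCAAT box, 2 GC boxes and a KLF motif that overlaps the second GC box (3.56% of promoters hold a KLF motif). The Tfcp2l1 window holds a TATA box (13.6% of promoters) shortly before the start of transcription, and the Sox2 window a CCAAT box (37.4%) and 2 GC boxes (35.7% of promoters hold at least 1). The Sox2 window ends at 34650044, upstream of the counted Sox2 gene, which begins at 34650405. Its RefSeq start thus differs from that of the annotation used for the counts. RefSeq gives Pou5f1 a pair of promoters, and the upstream window shown holds a CCAAT box and a GC box. The other, chr17:35508557-35508856, holds a SOX motif (3.66% of promoters) and a CCAAT box and has 6 CpG. The windows of Sox2 and Tfcp2l1 are rich in CpG, with 27 and 21, against 11 in the windows shown for Zfp42 and Pou5f1 and a median of 7 over all promoters. These matches describe the letters, and no binding was measured.

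Among the genes tested, 4 of 9 were called lower in maternally depleted embryos at an adjusted p under 0.05 and 0 were called higher (edgeR quasi-likelihood test, Benjamini-Hochberg adjustment over all 11754 genes). Of all genes tested, 9.35% were called, 4.98% lower and 4.37% higher. The 4 were Sall4, Tbx3, Prdm14 and Tfcp2l1, with fitted levels 2.1 to 4.8 times lower than in controls. The estimate was below 0 for 8 of the 9, and their median log2 fold change was -0.74, against -0.04 over all genes. Pou5f1, Nanog, Esrrb and Nr5a2 did not pass, and Zfp42 missed the threshold. Without the 7 embryos with most oviduct RNA, 8 controls and 4 maternally depleted embryos remained, 59 of 12385 genes were called and 0 of these 9 genes, of which Sall4, Tbx3, Tfcp2l1 and Zfp42 had an unadjusted p under 0.05. The estimates of the 4 genes without these embryos lay between -1.08 and -2.88 on the log2 scale. Without control 10 alone, 1252 genes were called, and 5 of these 9, Zfp42 being the additional gene.

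**Figure D1:**
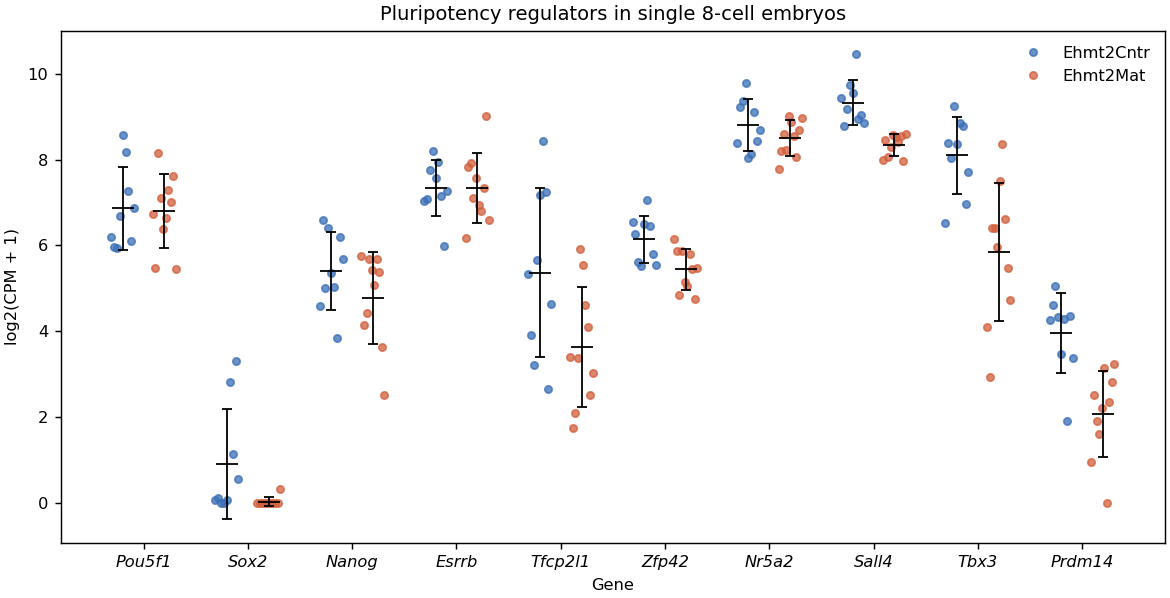
Log2(CPM + 1) of the 10 genes in each embryo (points, 9 Ehmt2Cntr in blue and 10 Ehmt2Mat in orange), with the mean (wide bar) and SD (error bar) of each group. For Sall4 the 10 orange points lie below the 9 blue points, for Prdm14 8 of 9 blue points lie above every orange point, and the groups overlap widely for Pou5f1 and Esrrb.

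Sall4 (ENSMUSG00000027547, chromosome 2, 168748332 to 168767943, minus strand) encodes a zinc finger protein that keeps inner cell mass cells proliferating and acts with POU5F1 and the NuRD complex. In controls its level was lowest at 439 CPM in control 2, with a median of 578 and a highest value of 1403 in control 7. In maternally depleted embryos it was 251 CPM at the lowest, 346 at the median and 385 at the highest. Every maternally depleted embryo lay below every control, which held for 21 of all genes tested (0.179%). The controls averaged 688 CPM (SD 302, n = 9), against 328 CPM (SD 54.4, n = 10) in the maternally depleted group. This is a log2 fold change of -1.07 (SE 0.196, 95% interval -1.47 to -0.67, adjusted p = 0.00158 in edgeR). The spread among embryos was 43.9% of the mean in controls and 16.6% in maternally depleted embryos. Control 7 stood at 1403 CPM and the next highest control, embryo 5, at 853.5, and the difference in spread was not tested. Sall4 was called in all 19 fits that left out 1 embryo, with estimates from -1.13 to -0.87. Of its exon bases, 9.5% also belong to Gm14261 on the opposite strand, whose reads cannot be told apart in these unstranded counts. Without the embryos with most oviduct RNA the estimate was -1.08 (SE 0.298) with p = 0.00215 in edgeR and an adjusted p of 0.101.

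Tbx3 (ENSMUSG00000018604, chromosome 5, 119670669 to 119684724, plus strand) encodes a T-box factor that promotes the naive state and, when forced, extraembryonic endoderm. Controls ranged from 91.2 CPM in embryo 1 through a median of 327 to 607 in embryo 5. Maternally depleted embryos ranged from 6.65 CPM in embryo 2 through a median of 72.6 to 328 in embryo 7. The groups overlapped, with 7 of 10 maternally depleted embryos below every control and embryo 7 level with the median control. The controls averaged 317 CPM (SD 168, n = 9), against 92.8 CPM (SD 97.0, n = 10) in the maternally depleted group. This is a log2 fold change of -1.77 (SE 0.505, 95% interval -2.81 to -0.73, adjusted p = 0.0275 in edgeR). The call was lost without control 5, the highest control (adjusted p = 0.0555), and was kept in the other 18 fits that left out 1 embryo. The estimate without the embryos with most oviduct RNA was -1.41 (SE 0.608, adjusted p = 0.335 in edgeR).

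Prdm14 (ENSMUSG00000042414, chromosome 1, 13113457 to 13127163, minus strand) encodes a PR domain protein that represses FGF signalling and DNA methyltransferases in naive cells and is needed for germ cells. It had 2.75 CPM in control 8, the lowest control, and 9.42 to 32.4 CPM in the other 8, with a median of 18.4 over all controls. In maternally depleted embryos it had 0 to 8.37 CPM with a median of 3.87, and embryo 7 had 0 counts among its reads. Thus 8 of 9 controls lay above every maternally depleted embryo, and every maternally depleted embryo lay below the median control, as for 7.83% of all genes tested. The controls averaged 17.0 CPM (SD 8.68, n = 9), against 4.05 CPM (SD 2.79, n = 10) in the maternally depleted group. This is a log2 fold change of -2.07 (SE 0.617, 95% interval -3.34 to -0.80, adjusted p = 0.0346 in edgeR). The call was kept in 11 of 19 fits that left out 1 embryo. It was lost without control 2, 3, 5 or 7 or maternally depleted embryo 1, 4, 5 or 8, with adjusted p from 0.0508 to 0.0675, and the estimates of all 19 fits stayed between -2.24 and -1.89. Without the embryos with most oviduct RNA it was -1.96 (SE 0.941, adjusted p = 0.399 in edgeR).

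Tfcp2l1 (ENSMUSG00000026380, chromosome 1, 118627945 to 118685168, plus strand) encodes a CP2-family factor downstream of LIF and STAT3 that sustains naive pluripotency. Among controls it ranged from 5.27 CPM in embryo 9 to 347 in embryo 7, with a median of 39.7, and embryos 6, 7 and 8 had 145, 347 and 151 CPM. In maternally depleted embryos it ranged from 2.35 to 59.9 CPM with a median of 9.45. Controls 6, 7 and 8 lay above every maternally depleted embryo, while the other 6 controls lay among them. The controls averaged 87.1 CPM (SD 112, n = 9), against 18.1 CPM (SD 19.6, n = 10) in the maternally depleted group. This is a log2 fold change of -2.26 (SE 0.707, 95% interval -3.72 to -0.80, adjusted p = 0.0436 in edgeR). The call was kept in 7 of 19 fits that left out 1 embryo. It was lost without control 5, 6, 7 or 8 or maternally depleted embryo 1, 2, 3, 4, 7, 8, 9 or 10, with adjusted p from 0.0504 to 0.153, and the estimate moved most, to -1.59, without control 7. Controls 6 to 9 also held relatively more counts on long genes. The slope on log2 exon length was taken from log2 CPM after subtraction of each gene's mean over embryos. It was 0.0717 to 0.120 in these controls, -0.0457 to -0.00246 in the other controls and -0.0828 to 0.0724 in maternally depleted embryos. Between the groups, the exact permutation test of this slope gave an unadjusted p of 0.0242 and, adjusted over the quality measures, 0.0727. With that slope removed, the estimate for Tfcp2l1, whose exons span 9438 bases, was -2.09 (adjusted p = 0.0598 in edgeR).

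Zfp42 (ENSMUSG00000051176, chromosome 8, 43295068 to 43307009, minus strand) encodes REX1, a zinc finger protein used as a marker of naive cells. It had 45.2 to 132 CPM in controls with a median of 76.2, and 25.9 to 70.3 CPM in maternally depleted embryos with a median of 43.2. All 10 maternally depleted embryos lay below the median control, as for 7.83% of all genes tested, and 6 of them lay below every control. The controls averaged 74.5 CPM (SD 29.1, n = 9), against 44.7 CPM (SD 14.8, n = 10) in the maternally depleted group. This is a log2 fold change of -0.74 (SE 0.249, 95% interval -1.25 to -0.22, adjusted p = 0.0616 in edgeR). The result was near the threshold, and it passed without control 3, 5 or 10 or maternally depleted embryo 1 (adjusted p from 0.0410 to 0.0491). DESeq2 gave -0.73 with an adjusted p of 0.0292. Of the 50-base windows of its transcripts, 8.52% are also found in the pseudogene Zfp42-ps1, so a part of its counts is uncertain.

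Sox2 (ENSMUSG00000074637, chromosome 3, 34650405 to 34652461, plus strand) encodes the SRY-box factor that partners POU5F1, and it is among the first genes to mark inner cells of the morula. It was hardly counted at this stage. Controls 7, 8, 9 and 10 had 78, 32, 150 and 15 counts, or 6.00, 1.22, 8.88 and 0.477 CPM, and the other 5 controls had 0 to 2 counts. Among maternally depleted embryos, 9 had 0 counts and embryo 10 had 3, or 0.246 CPM. On log2(CPM + 1) controls averaged 0.90 (SD 1.28, n = 9) and maternally depleted embryos 0.03 (SD 0.10, n = 10), a difference of -0.87 (two-sided exact permutation test over 92378 splits, p = 0.0114). This p stayed between 0.00226 and 0.0313 when each embryo was left out. No fold change is given, since all maternally depleted embryos were at or below the floor of 3 counts. A gene with 0 counts in these libraries may still be expressed below this depth.

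Pou5f1 (ENSMUSG00000024406, chromosome 17, 35506018 to 35510772, plus strand) encodes OCT4, the POU factor without which no pluripotent inner cell mass forms. It ranged from 60.0 to 379 CPM in controls (median 102) and from 43.1 to 285 CPM in maternally depleted embryos (median 117), so that the groups overlapped along most of their range. The log2 fold change was -0.18 (95% interval -0.96 to 0.61, adjusted p = 0.846 in edgeR). The interval covers levels from 0.515 to 1.52 times those of controls. The sign of this estimate rested on controls 6 and 7, at 379 and 288 CPM, and turned to 0.15 and 0.01 without them. Gm19553, on the opposite strand, shares 14.1% of the Pou5f1 exon bases.

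Nanog (ENSMUSG00000012396, chromosome 6, 122707489 to 122714633, plus strand) encodes the homeodomain factor that later separates epiblast from primitive endoderm. It ranged from 13.3 to 96.1 CPM in controls (median 40.1) and from 4.76 to 52.7 CPM in maternally depleted embryos (median 36.7). The 3 highest controls, embryos 2, 5 and 9, lay above every maternally depleted embryo, and the rest overlapped. The log2 fold change was -0.60 (SE 0.402, 95% interval -1.43 to 0.23, adjusted p = 0.395 in edgeR).

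Esrrb (ENSMUSG00000021255, chromosome 12, 86361117 to 86521628, plus strand) and Nr5a2 (ENSMUSG00000026398, chromosome 1, 136842571 to 136960448, minus strand) encode orphan nuclear receptors that bind related motifs and activate Pou5f1 and other early genes. Esrrb had 62.3 to 294 CPM in controls (median 154) and 71.0 to 521 CPM in maternally depleted embryos (median 149). Its log2 fold change was 0.11 (SE 0.313, 95% interval -0.54 to 0.76, adjusted p = 0.884 in edgeR), with embryo 9 of the maternally depleted group above every control. Without that embryo the estimate was -0.20. Nr5a2 had 260 to 888 CPM in controls (median 415) and 220 to 518 CPM in maternally depleted embryos (median 381). Its log2 fold change was -0.36 (SE 0.225, 95% interval -0.82 to 0.10, adjusted p = 0.360 in edgeR), and 4 controls lay above every maternally depleted embryo.

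**Figure D2:**
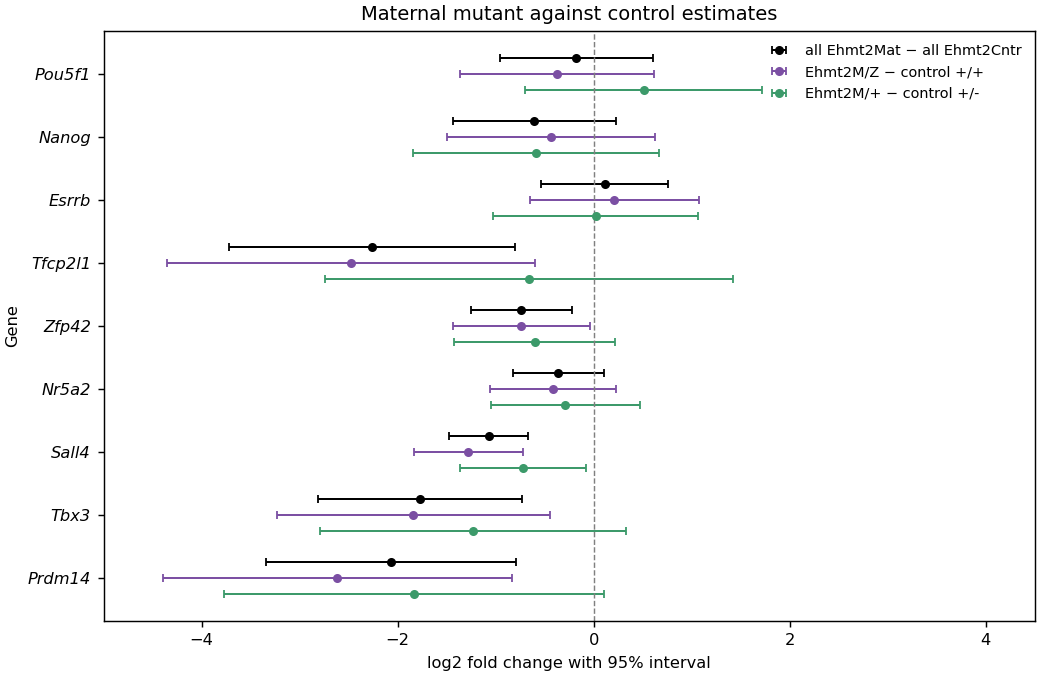
Log2 fold change (point) and 95% interval (bar) of the 9 genes tested, from edgeR fits of all Ehmt2Mat against all Ehmt2Cntr embryos (black), of Ehmt2M/Z against +/+ controls (purple) and of Ehmt2M/+ against +/- controls (green). The black intervals of Tfcp2l1, Zfp42, Sall4, Tbx3 and Prdm14 lie below 0, and of the green intervals that of Sall4 alone does.

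Per kilobase of exon (RPKM), Sall4 was the highest of the 10 genes in controls and Sox2 the lowest. The control medians were 104 RPKM for Sall4, 70.3 for Nr5a2, 49.4 for Tbx3, 45.5 for Pou5f1 and 42.3 for Zfp42. Esrrb followed at 25.5, Nanog at 17.9, Prdm14 at 7.17, Tfcp2l1 at 4.21 and Sox2 at 0.0439 RPKM. Of the 9 neighbouring pairs in this order, Nanog above Prdm14 and Tfcp2l1 above Sox2 had an adjusted p under 0.05 (two-sided exact sign-flip test on log2(RPKM + 0.1), adjusted p = 0.0352 for each, higher in 9 of 9 and 8 of 9 embryos). For the other 7 pairs the adjusted p was 0.0820 or more. The order was read from the same values, so these p-values describe the pairs and do not test the order. Tbx3 stood above Pou5f1 by median, but within embryos it was higher in 3 of 9 controls (mean log2 difference -0.32). Sox2 was at or below 3 counts in 5 controls, where its value rests on the added 0.1. In maternally depleted embryos the order began with Nr5a2 at 64.6 RPKM, Sall4 at 62.4 and Pou5f1 at 52.2, and Tbx3 stood seventh with 10.95. There, Pou5f1 above Esrrb, Zfp42 above Nanog, Tbx3 above Prdm14 and Tfcp2l1 above Sox2 had an adjusted p under 0.05 (same exact test, adjusted p from 0.00879 to 0.0396). This order too was read from the values tested. All 10 maternally depleted embryos were at or below 3 counts of Sox2, so the size of that difference rests on the added 0.1. The amplification favours the 3′ ends of transcripts, so levels per length are approximate between genes of different length.

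The embryos were then divided by maternal and zygotic genotype into 4 groups in a single fit over 15224 genes. All 10 genes entered this fit, Sox2 only through the controls in which it was counted. Ehmt2M/Z embryos and +/+ controls differ in both the maternal and the zygotic genotype, which their contrast cannot tell apart. Between Ehmt2M/Z embryos (n = 5) and +/+ controls (n = 6), 655 genes were called (4.3%, 1.89% lower and 2.41% higher), and of the 10 genes Sall4 was called. Its log2 fold change was -1.28 (SE 0.268, adjusted p = 0.0107 in edgeR). In the same contrast the estimates were -2.61 for Prdm14 (adjusted p = 0.0809), -1.84 for Tbx3 (adjusted p = 0.108) and -2.48 for Tfcp2l1 (adjusted p = 0.109). Sall4 stayed called without any 1 embryo, and Tbx3 joined it without maternally depleted embryo 7. The count of all genes moved by over 1.5 times without controls 7 or 8 or maternally depleted embryos 1, 4, 5 or 9, to between 281 and 374. DESeq2 called 1523 genes here, among them Sall4 and Prdm14. It also called Sox2, which had 0 counts in all 5 Ehmt2M/Z embryos and passed the filter through controls alone, so that this call is no support.

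With the zygotic genotype matched at +/-, Ehmt2M/+ embryos (n = 5) were set against +/- controls (n = 3). Sall4 was 264 to 385 CPM in these Ehmt2M/+ embryos (median 368) and 459 to 692 CPM in the +/- controls (median 578), with no overlap. Its log2 fold change was -0.72 (SE 0.309, p = 0.0289, adjusted p = 0.539 in edgeR). Prdm14 was 2.79 to 8.37 CPM against 9.42 to 32.4 CPM, also without overlap (log2 fold change -1.83, SE 0.937, adjusted p = 0.607). With groups of 5 and 3, 2.38% of all genes were lower without overlap. Tbx3 was 6.65 to 181 CPM against 91.2 to 260 CPM (log2 fold change -1.23, SE 0.757, adjusted p = 0.695). Tfcp2l1 differed least of the 4, by -0.66 (SE 1.01, adjusted p = 0.933), and its values overlapped. No gene was called in this contrast by edgeR (0%, with 1290 genes at an unadjusted p under 0.05 and 154 called by DESeq2), and with 3 controls its intervals are wide. Without control 10, 1 of these 3 controls, 33 genes were called and 0 of the 10.

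Between Ehmt2M/Z and Ehmt2M/+ embryos, which by genotype differ in the zygotic copy, edgeR called 0 genes (0%, 437 at an unadjusted p under 0.05), and DESeq2 called 16, with 0 of the 10 genes among them. Sall4 had a median of 311 CPM in Ehmt2M/Z and 368 in Ehmt2M/+ embryos (log2 fold change -0.18, SE 0.272). Prdm14 had medians of 2.04 and 4.69 CPM (log2 fold change -1.13, SE 0.844), and Tbx3 61.6 and 83.5 CPM (log2 fold change 0.44, SE 0.671). The intervals of these differences ran from -0.74 to 0.39 for Sall4 and from -2.88 to 0.61 for Prdm14. Among controls, +/- against +/+, edgeR also called 0 genes (0%, 1581 at an unadjusted p under 0.05, 181 called by DESeq2). Tfcp2l1 had a median of 24.0 CPM in +/- and 97.3 CPM in +/+ controls, a log2 fold change of -2.32 (SE 1.11, p = 0.0475, adjusted p = 0.471 in edgeR). The 3 controls with high Tfcp2l1 were all +/+. The contrasts of this fit share embryos.

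**Figure D3:**
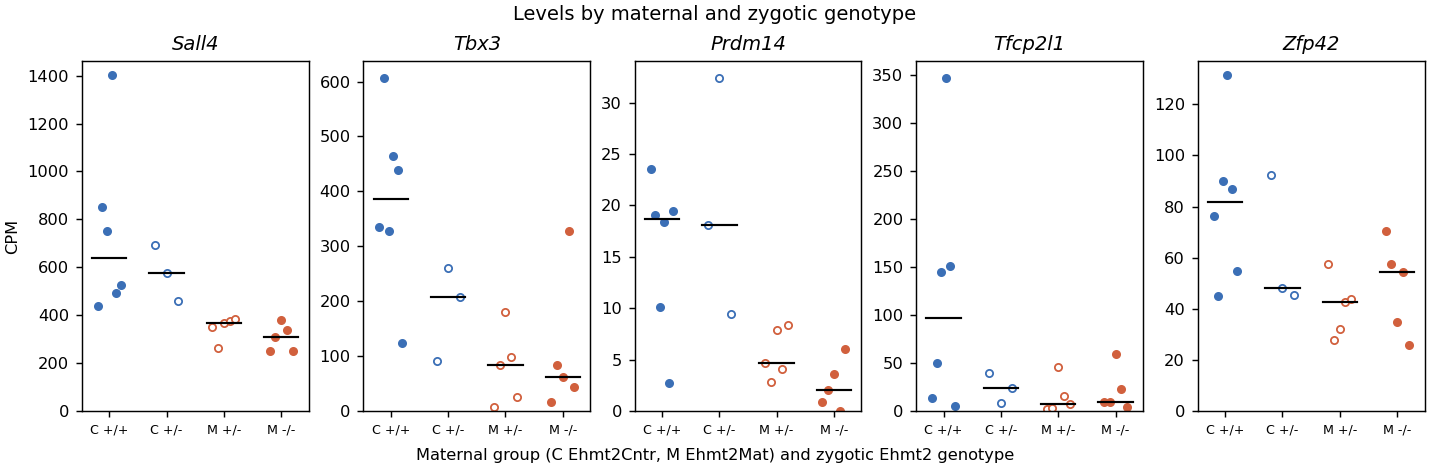
CPM (linear axes from 0) of Sall4, Tbx3, Prdm14, Tfcp2l1 and Zfp42 in each embryo by maternal group (blue Ehmt2Cntr, orange Ehmt2Mat) and zygotic genotype (open points +/-), with the median as a bar; n is 6, 3, 5 and 5 from left to right. Sall4 lies between 251 and 385 CPM in both orange groups and between 439 and 1403 CPM in both blue groups, and the 3 high values of Tfcp2l1 are in +/+ controls.

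Other genes of the naive network and of neighbouring lineages were then read from the same fit of all embryos. Of 37 genes of the naive pluripotency network and the LIF pathway, 29 were tested, 5 were called lower and 0 higher, with a median log2 fold change of -0.69 (edgeR, with 10 lower and 4 higher at an unadjusted p under 0.05). DESeq2 called 9 lower and 3 higher, and a minimum of 10 counts per embryo gave 8 lower and 2 higher, so that the calls in this list did not all go 1 way. Without control 8, 3 were called. Klf5, a Krüppel-like factor needed for trophectoderm and inner cell mass, averaged 233 CPM in controls (SD 68.4, n = 9) and 82.7 CPM (SD 32.6, n = 10) in maternally depleted embryos (log2 fold change -1.49, adjusted p = 4.9e-04 in edgeR). As with Sall4, its groups did not overlap, which held for 21 of all genes tested (0.179%). Klf4, a reprogramming factor of the same family, was lower by 1.67 on the log2 scale (adjusted p = 0.00205 in edgeR). Every maternally depleted embryo had less Klf4 than the median control, as for 7.83% of all genes tested. Tet1, which oxidises methylated cytosine, and Lin28a, which blocks let-7 maturation, had log2 fold changes of -1.13 and -1.48 (adjusted p = 0.00730 and 0.0207). The fifth gene called was Ctnnb1, which encodes β-catenin (log2 fold change -0.77, adjusted p = 0.0316).

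Of 29 genes for cofactors and regulators of POU5F1 and NANOG, all were tested, 4 were called higher and 0 lower by edgeR, with a median of 0.04 (6 higher and 3 lower at an unadjusted p under 0.05). DESeq2, a minimum of 10 counts in every embryo, and omission of control 1 each gave 4 higher and 3 lower, and the replicate block gave 2 higher. The 4 were Paf1, of the elongation complex of that name (53.8 against 146 CPM, log2 fold change 1.43, adjusted p = 0.00242), Mta2 of NuRD (68.0 against 182 CPM, 1.42, adjusted p = 0.00326), Smarca4, the BAF ATPase (0.77, adjusted p = 0.0190), and the acetyltransferase Kat5 (0.97, adjusted p = 0.0452). Of 14 primitive endoderm genes tested, 4 were called lower: Fgfr1 (log2 fold change -1.93, adjusted p = 0.00118), Gata6 (-1.85, adjusted p = 0.00410), Amn (-3.32, adjusted p = 0.0261) and Dab2 (-1.71, adjusted p = 0.0489). Of the 14 estimates 3 were above 0, among them Gata4 (0.68, adjusted p = 0.0667 in edgeR) and Sparc (2.80, adjusted p = 0.129). Gata4 averaged 200 CPM in controls (SD 75.7, n = 9), against 319 CPM (SD 123, n = 10) in maternally depleted embryos. DESeq2 called 4 of this list lower and 2 higher. Gata6, which opposes Nanog in later inner cell mass cells, averaged 571 CPM in controls (SD 245, n = 9), against 159 CPM (SD 121, n = 10) after maternal depletion. Of 15 trophectoderm genes tested, Tead4 and Tfap2c were called higher (log2 fold changes 0.90 and 0.75, adjusted p = 0.00460 and 0.0183) and Elf3 lower (-1.59, adjusted p = 0.0329). The median of these 15 was -0.10, with 7 estimates above 0 and 8 below. Of 17 oocyte transcripts, Oosp1 was called higher (2.70, adjusted p = 0.00277) and Khdc3 lower (-2.96, adjusted p = 0.00550), with a median of -0.19. No gene of the 2-cell (3 tested), cumulus and granulosa (4 tested) or oviduct (4 tested) lists was called by edgeR with its filter, with medians of 0.76, 0.75 and 2.12 and with 0, 0 and 1 gene at an unadjusted p under 0.05. Of the oviduct list, 2 genes were called higher by DESeq2, 2 without control 10 and 1 with the replicate block, and of the cumulus and granulosa list 2 were called higher with no filter on low counts. Without the embryos with most oviduct RNA, 1 of the genes in these lists was called in place of 18, in the naive network.

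**Figure D4:**
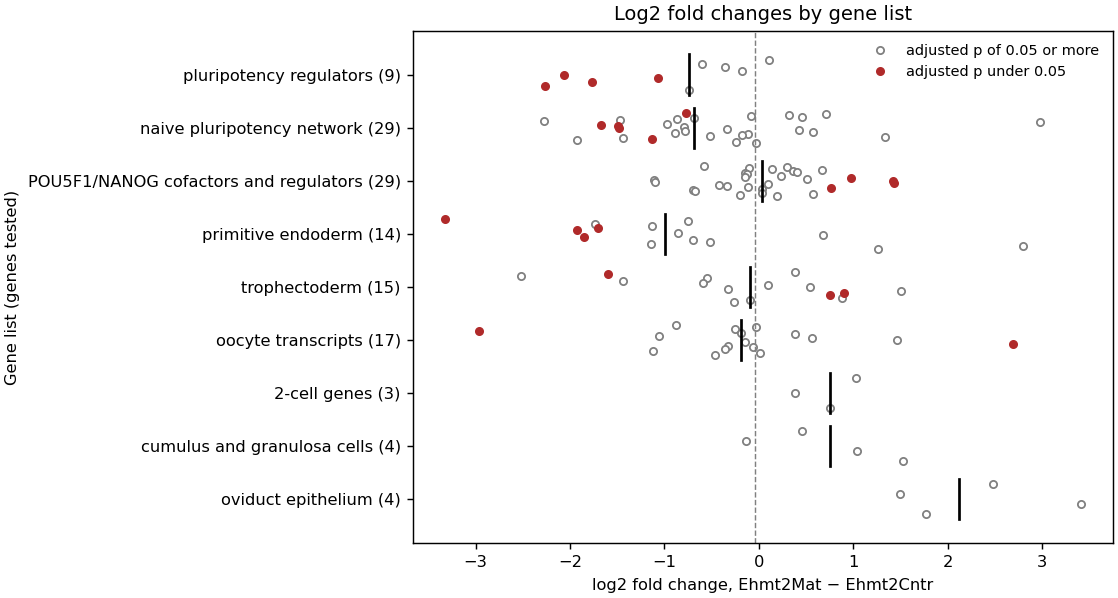
Log2 fold change of Ehmt2Mat against Ehmt2Cntr for each tested gene of the pluripotency regulators and of 8 further lists (filled red where the adjusted p is under 0.05), with the list median as a black bar and the median of all 11754 genes, -0.04, as a dashed line. The medians of the regulators, the naive network and primitive endoderm lie at -0.74, -0.69 and -0.99, and that of the cofactors lies at 0.04.

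After the group mean was subtracted from log2 CPM, 36 pairs of the 9 genes were compared over 19 embryos, and 0 passed an adjusted p of 0.05 by Pearson's r or Spearman's rho (permutation within groups, 100000 resamples). The median r was 0.08. The lowest was that of Zfp42 and Nr5a2 (r = -0.634, permutation p = 0.00639, adjusted p = 0.151, rho = -0.616, p = 0.00797, adjusted p = 0.156), and r was -0.592 without the 2 embryos farthest from the median of Zfp42. It was -0.614 in controls and -0.677 in maternally depleted embryos. The highest was that of Tfcp2l1 and Sall4 (r = 0.598, permutation p = 0.0125, adjusted p = 0.151, rho = 0.518, p = 0.0348, adjusted p = 0.302), which dropped to 0.421 without the 2 farthest embryos, control 7 among them. Pou5f1 and Tfcp2l1 had r = 0.863 in the 9 controls and -0.0252 in the 10 maternally depleted embryos, a difference that was not tested.

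**Figure D5:**
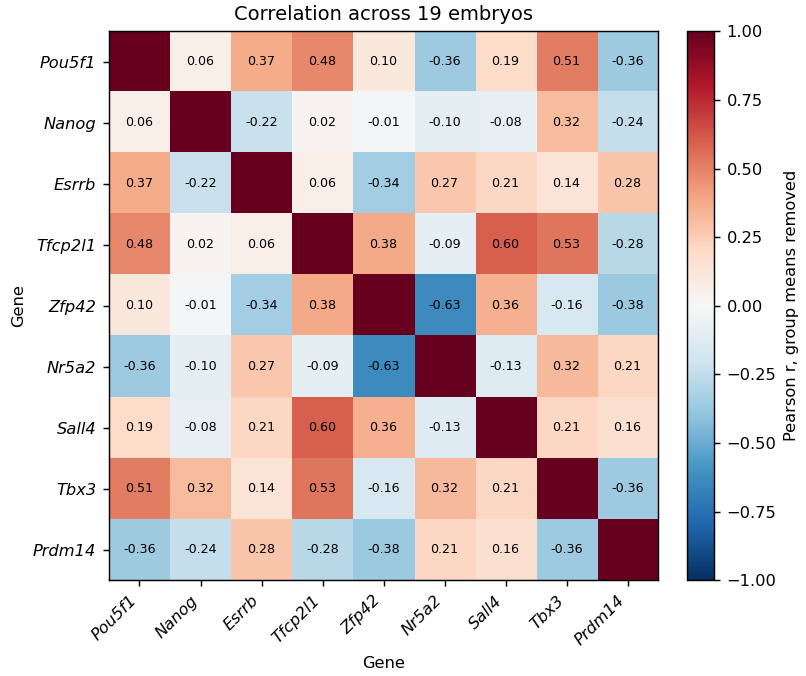
Pearson r of log2 CPM between each pair of the 9 genes tested over 19 embryos, after subtraction of the group means (red positive, blue negative, scale -1 to 1). The values run from -0.63 for Zfp42 with Nr5a2 to 0.60 for Tfcp2l1 with Sall4.

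The genes whose variation over the 19 embryos was most like that of each regulator were named by the same measure, as a description of likeness. For Pou5f1 it was Gm19553 (r = 0.991), the opposite-strand gene that shares its reads, followed by Sord (0.885) and Cpsf3 (0.879). For Tfcp2l1 these were Lrpprc (r = 0.884), Dmgdh (0.880) and Map7 (0.839), and for Sall4 Ctnna1 (0.792), Rnf166 (0.733) and Cluh (0.732). Esrrb varied most like Atp6ap1 (r = 0.879), Zfp42 like Alkbh7 (0.864) and Nr5a2 like Rnf7 (0.860). These values are the highest among 11754 genes, chosen for being so. Tbx3 varied most like Gm26540 (r = 0.836), Nanog like Tmcc2 (0.807) and Prdm14 like Pla2g4e (0.789). None of these genes was another of the 10 regulators.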

How the data were processed

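Single-embryo RNA-seq counts of 9 Ehmt2Cntr and 10 Ehmt2Mat embryos were analysed. The authors deposited raw counts per gene without normalization. Per the file headers, featureCounts 1.5.0 counted exons of the Ensembl release 82 annotation (GRCm38) with an overlap of at least 10 bases, without strand, with multi-mapping reads kept and a read given to every gene it overlaps. The submitters' processing notes also name TopHat2 and DESeq2. Reads were single-end of 50 bases, and the cDNA amplification favours 3′ ends.

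Groups were taken from the maternal genotype in the labels. Tests were run in R 4.3.3 with edgeR 4.0.16 (filterByExpr, TMM, quasi-likelihood test, no covariates) at a Benjamini-Hochberg threshold of 0.05. Standard errors are the absolute log2 fold change divided by the square root of F. Sox2, below the filter, was tested by an exact permutation test on log2(CPM + 1). Total counts set the precision, with 3 counts as the floor. The alternatives were RLE and upper-quartile scaling, DESeq2 1.42.0, the replicate block made of embryo numbers, keeping all genes or those with 10 counts or more in each embryo, other pseudocounts and prior counts, the 2 genotypes of a contrast alone, and each embryo left out. Added after seeing the data were removal of the exon-length slope and omission of embryos with over 100 CPM of oviduct genes. The scripts were tested on simulated data.

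The regulators, gene lists and tests were chosen with earlier results of these data known. Genes named are the 10 regulators, Ehmt2, Ehmt1, up to 4 called genes of each list with the smallest adjusted p, and for regulators with a mean of at least 10 CPM the 3 genes of highest correlation, of which the first is given for some. Ovgp1, Ctnnb1, Gata4, Sparc and the cumulus genes at 0 were named after their values were seen.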

Additional observations from a re-analysis of the deposited data

Results flagged for a closer look

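Sox2 in maternally depleted embryo 10 stood apart from its group by Dixon's ratio (gap over range of 1.0), since its 3 counts (0.246 CPM) were set against 0 counts in the other 9 embryos. With those 9 tied at 0, any count above 0 gives this ratio, and the value equals the floor of 3 counts.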

How the results depend on the processing

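RLE and upper-quartile scaling changed no call of a regulator and no direction. DESeq2 called 1775 genes between the groups and 33 genes of the lists, in place of 1099 and 18, and Zfp42 passed with it (-0.73) and when at least 10 counts were required in every embryo (-0.74), where Prdm14 has no value. With no filter on low counts Sox2 was called as well (adjusted p = 0.0343 in edgeR), and 54.8% of the calls were higher, against 46.8% with the filter. That call of Sox2 is no support, since all maternally depleted embryos were at or below the floor of 3 counts. With the exon-length slope removed, Tfcp2l1 missed the threshold (-2.09). Without the embryos with over 100 CPM of oviduct genes, 59 genes, 0 regulators and 1 listed gene were called, and the estimates of the 4 genes called with all embryos were -1.08 for Sall4, -1.41 for Tbx3, -1.96 for Prdm14 and -2.88 for Tfcp2l1. That comparison holds 12 embryos in place of 19.

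Embryo numbers occur in both groups, but embryos of the same number did not deviate together (mean r 0.0125 over 9 pairs, -0.156 to 0.0856), and 0 controls correlated best with their own number. With the replicate block, 693 genes were called, Prdm14 missed the threshold (-2.20), Esrrb changed sign (-0.061), and Ehmt2M/Z against +/+ controls gave 77 genes and 0 regulators.

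In the contrasts of zygotic genotype, DESeq2 called 16 genes between Ehmt2M/Z and Ehmt2M/+, 154 between Ehmt2M/+ and +/- controls, 181 between +/- and +/+ controls, and 1523 genes between Ehmt2M/Z and +/+ controls. The last include 3 regulators, of which Sox2 is no support, as it had 0 counts in every Ehmt2M/Z embryo and passed the filter through controls. For Ehmt2M/+ against +/- controls, 1 gene was called with no filter on low counts and 1 when those 2 genotypes were fitted alone.

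When each embryo was left out, the number of regulators called ranged from 2 to 5, falling to 2 without control 5 or 7 or maternally depleted embryo 4 or 8. In the same fits, the number of all genes called ranged from 884 to 1262, against 1099 with all embryos. Estimates ranged from -0.39 to 0.15 for Pou5f1, -0.20 to 0.24 for Esrrb, -2.69 to -1.59 for Tfcp2l1, -2.25 to -1.60 for Tbx3, -0.83 to -0.59 for Zfp42 and -2.24 to -1.89 for Prdm14. Counts of genes ranged from 281 to 758 for Ehmt2M/Z against +/+ controls, with 1 to 2 regulators, from 0 to 33 for Ehmt2M/+ against +/- controls and from 0 to 1 between controls, the highest of the last 2 without control 10. The causes were not tested. The Sox2 result rests on 4 controls with more than 3 counts, and the part of depth in it was not tested.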
